A study of Mus musculus with 12 samples.

Results

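The endoplasmic reticulum (ER) chaperones described here are 10 genes, found in the deposited count table by the Ensembl identifiers of the mouse symbols Hspa5, Dnajb9, Sdf2l1, Hsp90b1, Calr, Canx, Pdia3, Pdia4, Pdia6 and Xbp1. They are 10 of the 54752 genes in the table and 10 of the 18434 genes that passed a filter on low counts, so each of them was tested. The RNA came from B16F10, a transplantable melanoma line of the mouse in long use, as 12 libraries in 4 groups of 3. The control group has the genotype WT, and the other groups are labelled Ep300 knockout, Crebbp knockout and Ep300 Crebbp knockout, called the double knockout here. All libraries share the same parental line and medium, DMEM with serum. Ep300 and Crebbp encode the paralogous lysine acetyltransferases p300 and CBP, which act as transcriptional coactivators. The labels do not say whether a knockout is a clone or a pool, nor whether the libraries of a group came from separate cultures, so the p-values measure only the spread between these libraries, which may be technical.

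Proteins that enter the ER are folded by an Hsp70 system (Hspa5 with its cofactors), an Hsp90 protein (Hsp90b1), sugar-binding chaperones (Calr and Canx) and disulphide isomerases (the Pdia proteins). When unfolded proteins accumulate, the sensors ATF6, IRE1 (Ern1) and PERK (Eif2ak3) start the unfolded protein response, in which cleaved ATF6 and the spliced form of Xbp1 raise transcription of these chaperones. Many of their promoters carry the ER stress response element (ERSE), a CCAAT box, bound by the trimeric factor NF-Y, set at a fixed distance from a second part bound by ATF6. Pigment cells make large amounts of membrane and melanosomal glycoproteins that pass through this folding system.

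Promoter windows of 300 bases around the RefSeq start sites were found for all 10 genes in the RefSeq table (build GRCm38.p6, the patch series of mm10) and searched on both strands. The ERSE was searched as CCAAT, 9 bases of any kind and CCACG, and a relaxed form as CCAAT, 9 bases and CCA. At least 1 ERSE was present in 5 of the 10 windows, those of Hspa5, Hsp90b1, Calr, Canx and Pdia6, and in 0.119% of the 32851 windows in the table. The relaxed form, which every ERSE also contains, was in 7 of the 10, adding Pdia3 and Pdia4, and in 1.09% of all windows. A CCAAT box anywhere was in 9 of the 10, all but Xbp1, and in 37.4% of all windows. None of the 10 held ATTGG, 1 base and CCACG (ERSE-II, 0.0365% of windows), TGACGTGG (UPRE, 0.676%) or TGACGTCA (CRE, the palindromic site of CREB proteins, 1.79%). For ERSE-II, UPRE and CRE only these exact patterns were searched, and variant forms were not. Hsp90b1 had 2 ERSE copies, on opposite strands, and the other ERSE genes had 1. These matches describe letters in the windows, and no binding was measured.

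The windows of Hspa5, Hsp90b1, Calr and Pdia6 are shown because they carry the ERSE, and that of Sdf2l1 because its RNA had the largest double-knockout fall of the 10 genes although its window holds CCAAT boxes and no ERSE. They are written 5′ to 3′ in the direction of the gene, with the ERSE and its relaxed form in capitals on whichever strand they lie. Their positions are chr2:34771840-34772139 on the plus strand for Hspa5, chr10:86705395-86705694 on the minus strand for Hsp90b1, chr8:84846882-84847181 on the minus strand for Calr, chr12:17266339-17266638 on the plus strand for Pdia6 and chr16:17132334-17132633 on the minus strand for Sdf2l1.
Hspa5: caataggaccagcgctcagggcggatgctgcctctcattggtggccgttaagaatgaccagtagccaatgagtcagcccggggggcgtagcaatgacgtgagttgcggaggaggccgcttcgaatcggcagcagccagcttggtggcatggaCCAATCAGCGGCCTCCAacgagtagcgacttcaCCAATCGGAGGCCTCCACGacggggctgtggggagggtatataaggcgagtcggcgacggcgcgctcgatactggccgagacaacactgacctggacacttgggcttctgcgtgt
Hsp90b1: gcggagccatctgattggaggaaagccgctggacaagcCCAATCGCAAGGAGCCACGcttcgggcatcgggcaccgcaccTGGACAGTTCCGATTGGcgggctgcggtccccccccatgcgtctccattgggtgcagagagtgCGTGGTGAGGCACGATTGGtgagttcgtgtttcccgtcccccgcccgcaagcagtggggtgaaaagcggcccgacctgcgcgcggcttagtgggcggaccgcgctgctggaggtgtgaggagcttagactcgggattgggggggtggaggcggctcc
Calr: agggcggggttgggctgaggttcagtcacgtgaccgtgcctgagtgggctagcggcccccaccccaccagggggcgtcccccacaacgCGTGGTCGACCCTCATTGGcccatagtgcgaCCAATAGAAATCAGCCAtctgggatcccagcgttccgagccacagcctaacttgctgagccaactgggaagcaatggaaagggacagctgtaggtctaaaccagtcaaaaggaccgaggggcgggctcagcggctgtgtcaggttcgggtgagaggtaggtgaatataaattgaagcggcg
Pdia6: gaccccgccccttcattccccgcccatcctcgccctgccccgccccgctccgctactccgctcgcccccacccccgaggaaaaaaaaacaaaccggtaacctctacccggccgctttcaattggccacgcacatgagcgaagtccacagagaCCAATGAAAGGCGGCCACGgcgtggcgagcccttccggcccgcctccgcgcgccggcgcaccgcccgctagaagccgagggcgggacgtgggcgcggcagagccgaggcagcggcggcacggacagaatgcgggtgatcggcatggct
Sdf2l1: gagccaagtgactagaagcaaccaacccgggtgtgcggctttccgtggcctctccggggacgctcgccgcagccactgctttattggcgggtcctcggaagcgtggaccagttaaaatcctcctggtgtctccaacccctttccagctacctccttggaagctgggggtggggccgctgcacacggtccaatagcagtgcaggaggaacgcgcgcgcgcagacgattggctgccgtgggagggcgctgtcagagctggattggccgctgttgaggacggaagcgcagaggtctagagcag

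**Figure D1:**
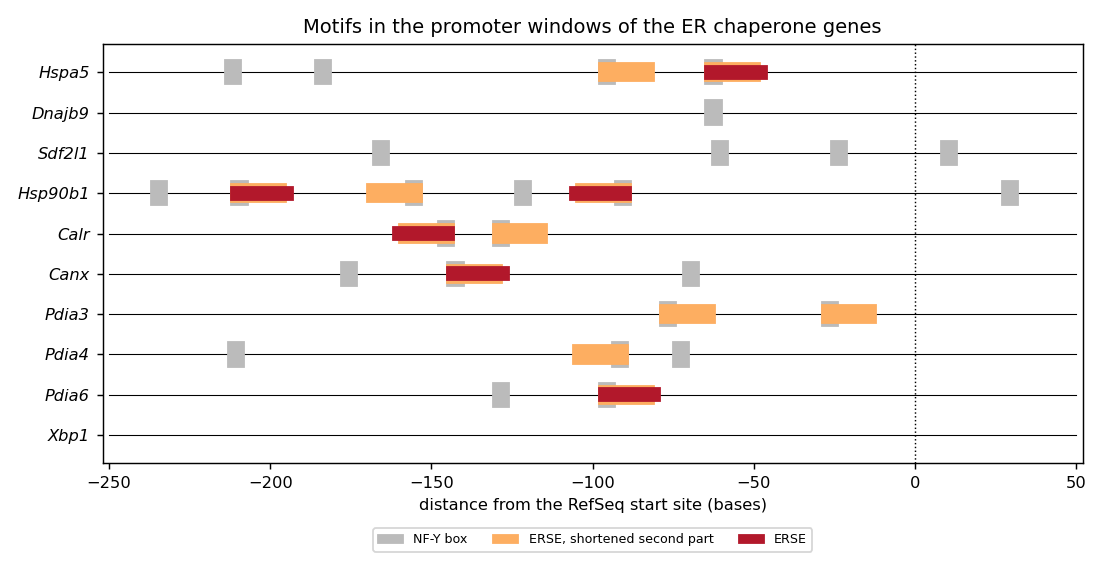
Positions of motifs in the promoter windows of the 10 genes, as distance from the RefSeq start site in bases (x axis), 1 line per gene; grey blocks are CCAAT boxes (bound by NF-Y), orange blocks the relaxed ERSE with the shortened second part, and red blocks the ERSE. An ERSE lies upstream of the start site in Hspa5, Hsp90b1, Calr, Canx and Pdia6, Hsp90b1 has 2, and Xbp1 has no block.

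Depth ran from 64257251 to 85604243 counts per library. Levels are given as CPM, counts scaled to a common library total with TMM factors, changes are log2 fold changes with standard errors (SE), and a gene is called where its Benjamini-Hochberg adjusted p over all tested genes is under 0.05. Crebbp RNA was lower in the libraries labelled Crebbp knockout (-0.91 ± 0.12, adjusted p = 0.000527) but not in those labelled double knockout (-0.016 ± 0.11, adjusted p = 0.922). Ep300 RNA was not called lower in the libraries labelled Ep300 knockout (-0.15 ± 0.10, adjusted p = 0.376) and was higher in those labelled double knockout (0.65 ± 0.10, adjusted p = 7.33e-05). RNA of the targeted genes therefore did not match the labels of the Ep300 and double knockout groups, and every direction given for them is that of the libraries so labelled. The labels do not say which part of either gene was edited, so a count over the whole gene may not test the edit. The melanocyte markers Mitf, Sox10, Pmel, Mlana, Tyr, Tyrp1 and Dct were detected in every group, and their summed level was 19448 to 21397 CPM in control libraries, 18351 to 19164 in those labelled Crebbp knockout, 14299 to 15024 in those labelled Ep300 knockout and 6526 to 6694 in those labelled double knockout. These markers thus moved with the chaperone genes over the groups, and their part in the results was not tested. The fibroblast, immune, endothelial and epithelial marker lists each summed to at most 19.4 CPM in any library, with Adgre1, Krt14 and Krt18 at 0 in all 12. Plasma cell markers, checked because plasma cells are rich in ER chaperones, summed to 41.1 to 69.2 CPM, with Ighm and Igkc at 0 in all 12.

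All 10 ER chaperone genes were lower in the libraries labelled double knockout than in control, against 24.6% of all tested genes called lower in that comparison. The falls ran from -0.23 (Xbp1) to -1.40 (Sdf2l1), with a median of -0.77 beside -0.016 over all tested genes. For each of the 10 genes the 3 double-knockout libraries lay below all 3 controls. The share of all tested genes that did so was not counted. In the libraries labelled Ep300 knockout, 5 of the 10 were called lower (Pdia4, Pdia6, Hspa5, Hsp90b1 and Sdf2l1) beside 8.83% of all genes, with a median of -0.30 beside 0.0064. In the libraries labelled Crebbp knockout, edgeR called 0 of the 10 beside 3.13% of all genes called in either direction, with a median of -0.0081. There, 1 of the 10, Dnajb9, had an unadjusted p under 0.05, and DESeq2 and limma-voom also called 0. These comparisons share the same 3 control libraries. The 10 genes together took 0.872% to 0.906% of all counts in control, 0.747% to 0.786% in Ep300 knockout, 0.89% to 0.918% in Crebbp knockout and 0.641% to 0.651% in double knockout libraries. In bulk RNA, fewer cells of a kind and less RNA per cell cannot be told apart.

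**Figure D2:**
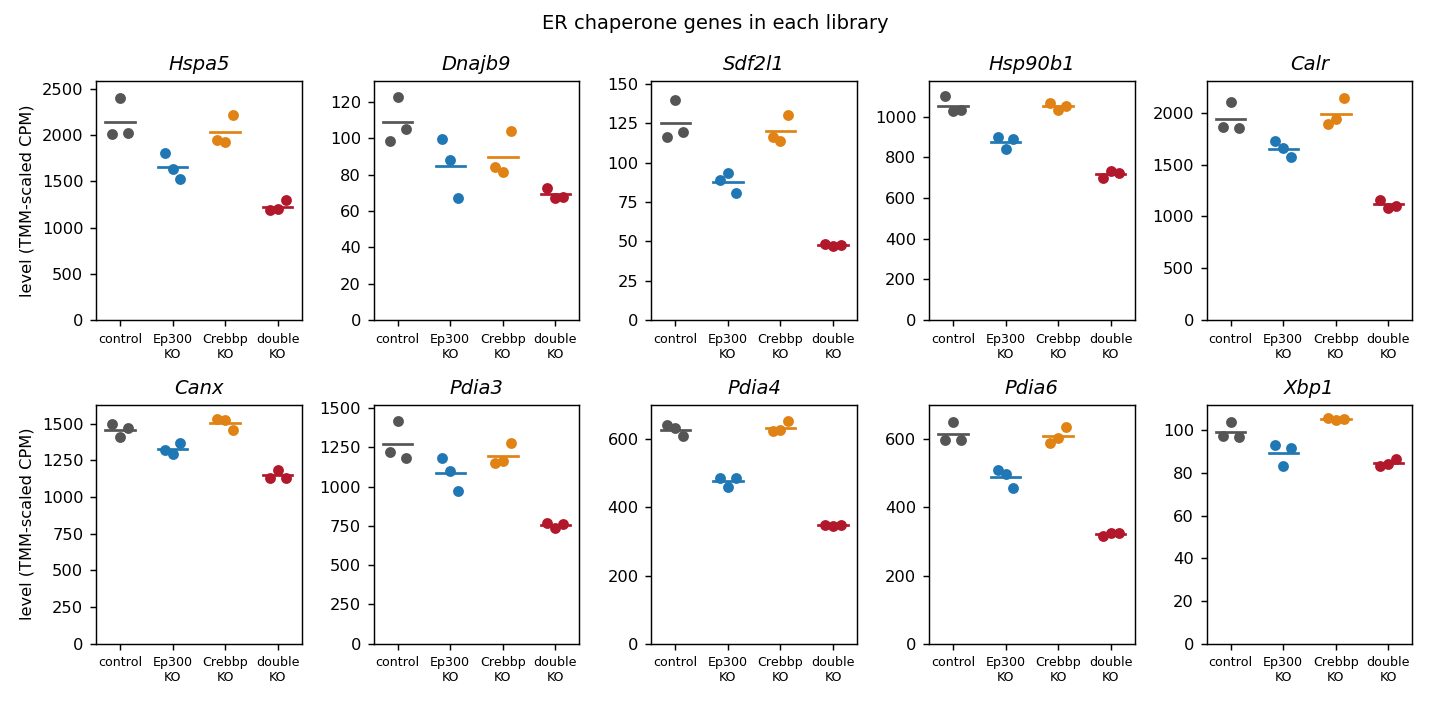
Level of each of the 10 genes in TMM-scaled CPM (y axis, from 0, own scale per gene) in the 12 libraries, by labelled group; points are libraries and lines are group means. In every panel the 3 double-knockout points lie below all 3 control points, for Sdf2l1 at 46.7 to 48.2 CPM against 116 to 140 CPM. The share of all tested genes separated in this way was not counted.

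Hspa5 encodes BiP, the Hsp70 of the ER, and its cofactors Dnajb9 (a J-domain protein) and Sdf2l1 (a partner of ER J-domain proteins) were measured with it. Hspa5 stood at 2009.7, 2400.3 and 2017 CPM in the control libraries, 1803, 1629 and 1521 in those labelled Ep300 knockout, 1942, 1926 and 2220.3 in those labelled Crebbp knockout and 1191, 1197 and 1293 in those labelled double knockout. Every library labelled double knockout was below the lowest library of each other group, and the groups labelled Ep300 knockout and control did not overlap. Hspa5 fell by 42.7% in the double knockout against control (-0.80 ± 0.10, adjusted p = 1.08e-05). In the Ep300 knockout the change was -0.38 ± 0.10 (adjusted p = 0.0175), a call that leaving out any of 3 single libraries ended. Dropping control replicate 2 gave -0.29 (adjusted p = 0.0652). The adjusted p was 0.0701 on dropping Ep300 knockout replicate 2 and 0.0588 on dropping its replicate 3.

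Sdf2l1 showed the widest range of the 10 genes, at 116, 140.0 and 119.5 CPM in the control libraries, 88.9, 93.2 and 80.8 in those labelled Ep300 knockout, 116, 114 and 130.2 in those labelled Crebbp knockout and 48.2, 46.7 and 47.7 in those labelled double knockout. Its double-knockout libraries lay closer together than those of any other group and below all of them, and the Ep300 knockout libraries lay between these and the controls without overlap. It fell by 62.1% in the double knockout (-1.40 ± 0.083, adjusted p = 2.43e-09) and by 30.1% in the Ep300 knockout (-0.52 ± 0.082, adjusted p = 0.00033). In the Crebbp knockout the change was -0.06 ± 0.081 (adjusted p = 0.739), and the libraries overlapped the controls.

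Dnajb9 varied more between libraries of the control and single-knockout groups than the other members, at 98.6, 123 and 105 CPM in the control libraries, 99.9, 87.9 and 67 in those labelled Ep300 knockout, 84.5, 81.4 and 104 in those labelled Crebbp knockout and 72.6, 67.4 and 67.7 in those labelled double knockout. The Ep300 and Crebbp knockout libraries overlapped the controls and each other, and Ep300 knockout replicate 3 reached as low as the double-knockout libraries. Dnajb9 fell by 36.4% in the double knockout against control (-0.65 ± 0.13, adjusted p = 0.000652). With the TMM factor of each library as a covariate, that change was 0.034 (adjusted p = 0.826). Neither single knockout was called (-0.36 ± 0.13, adjusted p = 0.0758 for Ep300, and -0.27 ± 0.13, adjusted p = 0.281 for Crebbp).

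Hsp90b1 encodes GRP94, the Hsp90 of the ER, which folds a restricted set of secreted and membrane proteins such as integrins and Toll-like receptors. It stood at 1099, 1029 and 1032 CPM in control and 698, 731 and 720.4 CPM in the double-knockout libraries, and fell by 32% (-0.56 ± 0.072, adjusted p = 1.37e-05). The Ep300 knockout libraries, at 901, 839 and 889 CPM, were below all controls and above all double knockouts. Their change of -0.27 ± 0.071 (adjusted p = 0.0181) was no longer called on dropping control replicate 1, where the adjusted p was 0.0801, or Ep300 knockout replicate 2, where it was 0.0936. The Crebbp knockout libraries, at 1069, 1030.2 and 1053 CPM, overlapped the controls.

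Calr (calreticulin) and Canx (calnexin) encode the soluble and the membrane-bound lectin chaperone that hold newly made glycoproteins, and Pdia3 (ERp57) is the disulphide isomerase that works with both. Calr stood at 1867, 2108 and 1857 CPM in the control libraries, 1724, 1664 and 1571 in those labelled Ep300 knockout, 1888, 1939 and 2144 in those labelled Crebbp knockout and 1162, 1082 and 1102 in those labelled double knockout. Its double-knockout libraries were below every other library, while the Ep300 knockout libraries were below the controls but not called (-0.23 ± 0.087, adjusted p = 0.0872). Calr fell by 42.6% in the double knockout (-0.80 ± 0.087, adjusted p = 2.51e-06).

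Canx changed less. It stood at 1500.0, 1409 and 1470.4 CPM in control and 1131, 1184 and 1130.2 CPM in the double knockout, and fell by 21.3% (-0.35 ± 0.074, adjusted p = 0.00119). The libraries did not overlap, but with library totals in place of TMM factors the change was -0.11 (adjusted p = 0.276). Pdia3 stood at 1219, 1415 and 1181 CPM in control and 770.5, 739 and 763 CPM in the double knockout, and fell by 40.4% (-0.75 ± 0.095, adjusted p = 1.18e-05). The 3 partners of the glycoprotein folding cycle were thus lower by different amounts, and in neither single knockout was any of them called against control. The Ep300 knockout changes were -0.14 ± 0.074 for Canx (adjusted p = 0.255) and -0.23 ± 0.094 for Pdia3 (adjusted p = 0.124), where the Pdia3 libraries overlapped the controls.

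Pdia4 (ERp72) and Pdia6 (P5) encode further disulphide isomerases, which occur in complexes with BiP. Pdia4 had tight replicates, at 642, 633 and 611 CPM in the control libraries, 487, 460.4 and 487 in those labelled Ep300 knockout, 625, 626 and 653 in those labelled Crebbp knockout and 348, 346 and 348 in those labelled double knockout. The Crebbp knockout libraries overlapped the controls, the Ep300 knockout libraries formed a separate middle level, and the double-knockout libraries a lower one. Pdia4 fell by 24% in the Ep300 knockout (-0.40 ± 0.066, adjusted p = 0.000506). It fell by 44.7% in the double knockout (-0.85 ± 0.066, adjusted p = 5.22e-08). Pdia6 followed the same order, at 599, 651 and 596 CPM in the control libraries, 509, 499 and 458 in those labelled Ep300 knockout, 590.3, 603 and 636 in those labelled Crebbp knockout and 317, 324 and 326 in those labelled double knockout. Its double-knockout and Ep300 knockout libraries overlapped neither each other nor the controls. Pdia6 fell by 20.6% in the Ep300 knockout (-0.33 ± 0.072, adjusted p = 0.00449). It fell by 47.6% in the double knockout (-0.93 ± 0.073, adjusted p = 6.03e-08). With Sdf2l1, these were the genes whose Ep300 knockout call held in each of 23 alternative analyses.

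Xbp1 encodes a transcription factor of the unfolded protein response and is not itself a chaperone. It had the smallest range of the 10, at 97.3, 104 and 96.6 CPM in the control libraries, 93, 83.4 and 91.4 in those labelled Ep300 knockout, 105, 105 and 105 in those labelled Crebbp knockout and 83.1, 84.1 and 86.4 in those labelled double knockout. The double-knockout libraries were below all controls and overlapped the Ep300 knockout libraries. Xbp1 fell by 14.8% in the double knockout against control (-0.23 ± 0.061, adjusted p = 0.00555), but with library totals the change was 0.0065 (adjusted p = 0.95). Gene counts do not separate spliced from unspliced Xbp1 RNA, so its active form was not measured.

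**Figure D3:**
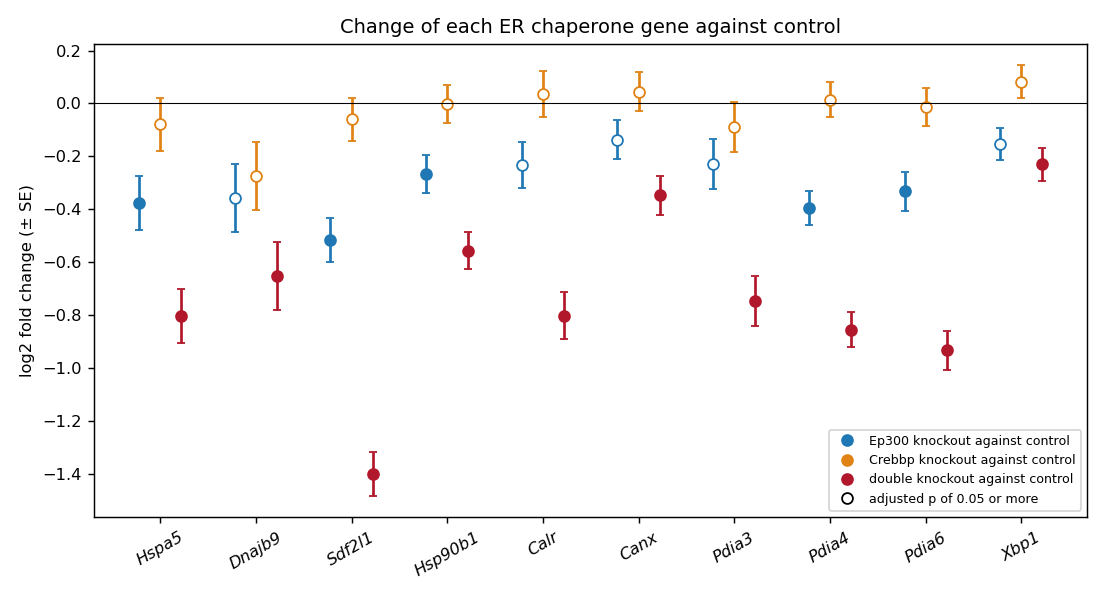
Log2 fold change against control (y axis, points with SE bars) of each of the 10 genes in the libraries labelled Ep300 knockout (blue), Crebbp knockout (orange) and double knockout (red), n = 3 libraries per group; open points have an adjusted p of 0.05 or more. All 10 red points are filled and lie between -1.40 and -0.23, and all 10 orange points are open.

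The knockouts were also set against each other. In Ep300 against Crebbp knockout, 5 of the 10 genes were lower (Pdia4, Pdia6, Hsp90b1, Xbp1 and Sdf2l1) beside 7.37% of all genes, with -0.46 ± 0.082 for Sdf2l1 (adjusted p = 0.00125) and -0.41 ± 0.066 for Pdia4 (adjusted p = 0.000475). That count was 3 without Ep300 knockout replicate 2, without Crebbp knockout replicate 1 or without Crebbp knockout replicate 2. In double against Ep300 knockout, 8 of the 10 were lower beside 16.6% of all genes. The exceptions were Dnajb9 (-0.29 ± 0.13, adjusted p = 0.0899) and Xbp1 (-0.078 ± 0.061, adjusted p = 0.353), and the Canx call (-0.21 ± 0.074, adjusted p = 0.0398) held in 10 of 23 alternatives. The Hspa5 call (-0.43 ± 0.10) was lost with the TMM factor of each library as a covariate (-0.14, adjusted p = 0.168) and the Hsp90b1 call (-0.29 ± 0.071) with library totals (-0.12, adjusted p = 0.24). In double against Crebbp knockout, all 10 were lower beside 21.8% of all genes, from -0.31 for Xbp1 to -1.34 for Sdf2l1. Dnajb9 left that list without Crebbp knockout replicate 3 (-0.26, adjusted p = 0.138), double knockout replicate 2 (-0.36, adjusted p = 0.0793) or double knockout replicate 3 (-0.36, adjusted p = 0.0767). With library totals, Dnajb9 (-0.18, adjusted p = 0.167), Canx (-0.20, adjusted p = 0.0634) and Xbp1 (-0.12, adjusted p = 0.2) left it. With the covariate, Dnajb9 was at 0.20 (adjusted p = 0.0757).

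Whether the double-knockout change equals the sum of both single-knockout changes was tested as a contrast on the log2 scale, where negative values mean a larger fall than the sum. The difference was called for 4 of the 10 genes, all negative, beside 4.96% of all tested genes. It was -0.82 ± 0.12 for Sdf2l1 (adjusted p = 0.000356), -0.60 ± 0.12 for Calr (adjusted p = 0.00612), -0.59 ± 0.10 for Pdia6 (adjusted p = 0.00206) and -0.47 ± 0.093 for Pdia4 (adjusted p = 0.00465). These 4 calls held in each of 22 alternatives. Of these 4, only Calr was called in neither single knockout by edgeR, at -0.23 and 0.034, beside -0.80 in the double knockout. Its Ep300 knockout libraries still lay below all controls, and DESeq2 called that change (-0.23, adjusted p = 0.0127). The other 6 differences were also negative but not called, from -0.43 ± 0.13 for Pdia3 (adjusted p = 0.0538) to -0.02 ± 0.18 for Dnajb9 (adjusted p = 0.963). Without control replicate 2 the count was 6, with Pdia3 (-0.51, adjusted p = 0.0148) and Hspa5 (-0.44, adjusted p = 0.0377) added.

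**Figure D4:**
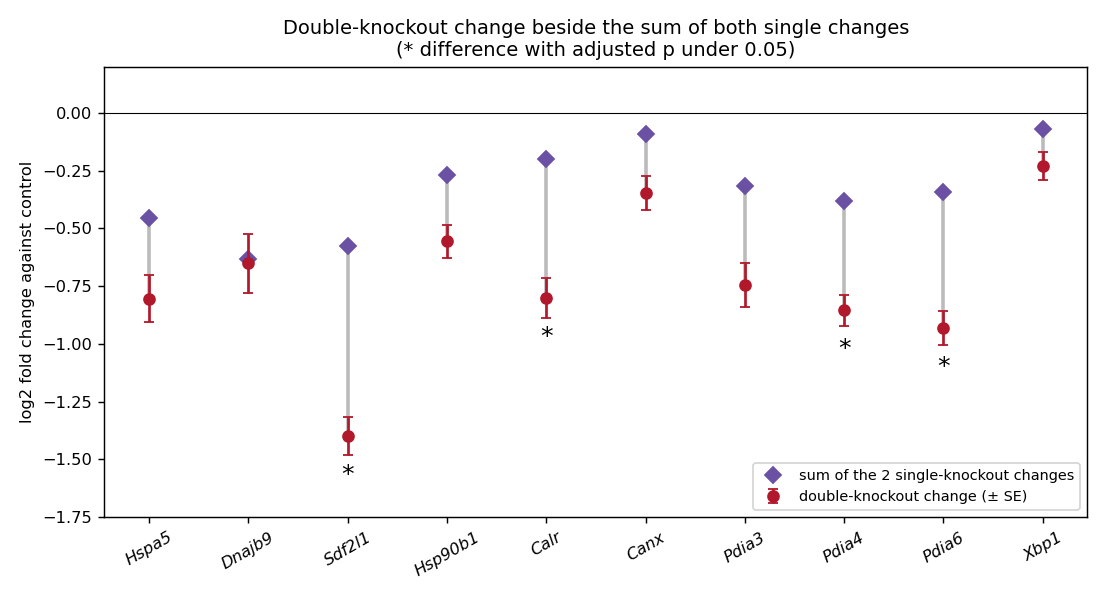
Log2 change of each gene against control in the double knockout (red points with SE bars) beside the sum of the Ep300 and Crebbp single-knockout changes (purple diamonds), n = 3 libraries per group; an asterisk marks genes whose difference has an adjusted p under 0.05. Sdf2l1, Calr, Pdia4 and Pdia6 carry the asterisk, with differences of -0.82, -0.60, -0.47 and -0.59, while the Dnajb9 symbols lie on each other.

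Several members moved with the scaling of the libraries. Control replicate 2 and Crebbp knockout replicate 3 had the lowest TMM factors of the 12 libraries, 0.89 and 0.911, and the highest Calr, Pdia3, Pdia6, Hspa5, Dnajb9 and Sdf2l1 levels of their groups. Ep300 knockout replicate 3 had the highest factor of its group, 1.04, and its lowest levels of the same 6 genes. The double-knockout libraries had the highest factors of all, 1.10 to 1.12. A fit with the log2 factor as a covariate was chosen after seeing the data. As the double-knockout factors lay above all others, it cannot separate the part of scaling from that of the group. In it 8 of the 10 genes were still lower in the double knockout. Of all tested genes 2867 were lower there, beside 4542 in the main fit. Changes were smaller for Pdia6 (-0.72), Hspa5 (-0.40), Pdia3 (-0.37), Calr (-0.51) and Sdf2l1 (-1.02). The change was larger for Canx (-0.49) and similar for Pdia4 (-0.83) and Hsp90b1 (-0.61). Dnajb9 was not called in that fit, nor was Xbp1, at -0.19 (adjusted p = 0.0881). With control replicate 2, Ep300 knockout replicate 3 and Crebbp knockout replicate 3 left out, all 10 remained lower in the double knockout. With library totals in place of the factors, the median of all genes shifted by 0.23 on the log2 scale and 8 of the 10 remained lower. In both of these fits the count of all genes called in either direction stayed within a factor of 1.5 of the main fit's 9102.

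Levels were compared between genes per length, as RPKM (TMM-scaled CPM divided by the exon model length in kilobases). In control the order was Calr (675 ± 49.5 RPKM, SD, n = 3), Hspa5 (507 ± 52.8), Pdia3 (405 ± 40.0), Canx (311 ± 9.84), Pdia4 (262 ± 6.73), Hsp90b1 (261 ± 9.82), Pdia6 (164 ± 8.26), Sdf2l1 (113 ± 11.5), Dnajb9 (42.7 ± 4.84) and Xbp1 (30.5 ± 1.23). Pdia4 and Hsp90b1 did not differ beyond their spread. Calr ranked 107 among 18430 tested genes with a length, and Xbp1 1948. In the double knockout Calr ranked 138 at 387 ± 14.4 RPKM and Sdf2l1 moved from rank 603 to rank 1277 at 42.9 ± 0.645 RPKM. Canx (245 ± 6.56 RPKM) and Pdia3 (241 ± 5.15 RPKM), which were apart in control, were within their spread of each other there, as were Dnajb9 (27.2 ± 1.15 RPKM) and Xbp1 (26 ± 0.519 RPKM).

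Genes upstream of the chaperones changed in both directions or were not called. Atf6, the sensor whose cleaved form binds the ERSE, stood at 79.2, 73.4 and 79.4 CPM in control and 74.6, 76.2 and 76.6 CPM in the double knockout, overlapping (-0.03 ± 0.063, adjusted p = 0.735), and was lower in the Ep300 knockout (-0.23 ± 0.064, adjusted p = 0.0233). The NF-Y subunit genes Nfya, Nfyb and Nfyc were called in none of the knockouts against control, with double-knockout changes of 0.0066, 0.082 and -0.13 (adjusted p = 0.936, 0.388 and 0.236). Ern1, which encodes the IRE1 sensor, was higher in the double knockout (0.38 ± 0.089, adjusted p = 0.0024) and Eif2ak3, which encodes PERK, lower (-0.26 ± 0.10, adjusted p = 0.0417). Atf4, the factor translated on PERK signalling, was lower in the Ep300 knockout (-0.49 ± 0.072, adjusted p = 0.000168) and in the double knockout (-0.36 ± 0.072, adjusted p = 0.000723). Ddit3 (CHOP), a target of ATF4, went from 20.9, 22.1 and 22.8 CPM in control to 29.4, 30.3 and 29.9 CPM in the double knockout, above all controls (0.45 ± 0.068, adjusted p = 7.01e-05), and was lower in the Crebbp knockout (-0.32 ± 0.069, adjusted p = 0.0219). RNA levels do not report the cleavage, splicing or phosphorylation by which these sensors act.

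A list of 28 genes held sensors and transcription factors of the unfolded protein response and other genes tied to it, such as Ppp1r15a, Trib3, Chac1, Bax and Bak1. Of the 28, 13 were higher and 4 lower in the double knockout, beside 24.7% and 24.6% of all genes, with a median of 0.14. Atf3, a stress-induced factor, rose from 15.9, 18.3 and 17.6 to 77.5, 74.9 and 74.8 CPM (2.13 ± 0.074, adjusted p = 4.56e-12), and Ppp1r15a (GADD34, a phosphatase subunit that reverses PERK signalling) rose by 1.36 ± 0.093 (adjusted p = 1.31e-08). In the Ep300 knockout 2 of the 28 were higher and 5 lower, beside 7.27% and 8.83% of all genes, the latter led by Trib3, a pseudokinase target of ATF4 (-0.65 ± 0.071, adjusted p = 8e-06). In the Crebbp knockout 2 of the 28 were lower, Trib3 and Ddit3, and 0 higher, beside 1.61% and 1.52% of all genes. In the double knockout the called genes of the list thus moved both ways, with lower calls a smaller share than among all genes. All 10 chaperone genes were lower there. In the Ep300 knockout the higher calls of the list were near the share of all genes, and 5 of the 10 chaperone genes were called, all lower.

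Of 42 tested ER folding factors outside the 10, 18 were lower and 10 higher in the double knockout, beside 24.6% of all tested genes lower and 24.7% higher, with a median of -0.18. Dnajc3 (p58IPK), a J-domain cofactor of BiP, went from 211, 209 and 205 to 121, 125 and 126 CPM (-0.75 ± 0.059, adjusted p = 6.55e-08). Dnajc1, another ER J-domain protein, was lower in both the Ep300 knockout (-0.85 ± 0.058, adjusted p = 4.34e-08) and the double knockout (-0.78 ± 0.058, adjusted p = 3.46e-08). Ero1l, the oxidase that recharges disulphide isomerases, was lower in the Ep300 (-0.52 ± 0.06, adjusted p = 1.57e-05), Crebbp (-0.42 ± 0.06, adjusted p = 0.00141) and double knockout (-0.42 ± 0.06, adjusted p = 4.47e-05). The collagen-folding prolyl isomerase Fkbp10 was higher in the Crebbp knockout (0.42 ± 0.10, adjusted p = 0.0344) and in the double knockout (0.86 ± 0.10, adjusted p = 4.08e-06). In the Ep300 knockout 9 of the 42 were lower and 6 higher, beside 8.83% and 7.27% of all genes. In the Crebbp knockout 1 was lower and 1 higher, beside 1.61% and 1.52%.

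The steps before and after folding were counted in the same way, beside the 24.6% of all genes lower and 24.7% higher in the double knockout. Of 24 translocation and signal-sequence genes, 16 were lower and 3 higher in the double knockout (median -0.35), among them the channel subunit Sec61b (-1.04 ± 0.13, adjusted p = 1.34e-05) and the translocation protein Tram1 (-0.86 ± 0.081, adjusted p = 4.84e-07). Of 27 N-glycosylation genes, 11 were lower and 1 higher (median -0.17), with the oligosaccharyltransferase subunits Rpn1 (-0.76 ± 0.068, adjusted p = 2.86e-07) and Magt1 (-0.83 ± 0.078, adjusted p = 4.69e-07) lower. Of 31 genes of ER-associated degradation, 7 were lower and 13 higher (median 0.15). Sec61b is on this list as well as the translocation list and is counted among the lower genes of both. Herpud1, a degradation-complex protein, was lower (-0.76 ± 0.066, adjusted p = 1.9e-07) and the J-domain protein Dnajb14 higher (0.59 ± 0.063, adjusted p = 2.03e-06). Of 32 genes of ER retention and vesicle coats, 6 were lower and 13 higher (median 0.088), with the COPII coat gene Sec23a (0.69 ± 0.065, adjusted p = 5.1e-07) and the KDEL receptor gene Kdelr3 (0.82 ± 0.10, adjusted p = 1.18e-05) higher. In the Ep300 knockout the calls were 2 lower of 24, 2 lower of 27, 2 lower and 1 higher of 31, and 2 higher of 32, in the same order, beside 8.83% lower and 7.27% higher of all genes. They were Tram1 (-0.30 ± 0.08) and Sec63 (-0.20 ± 0.058), Rpn1 (-0.31 ± 0.068) and Stt3b (-0.29 ± 0.068), Herpud1 (-0.62 ± 0.066), Derl1 (-0.20 ± 0.065) and Dnajb14 (0.20 ± 0.063), and Sec23a (0.33 ± 0.065) and Sec24d (0.26 ± 0.084). In the Crebbp knockout edgeR called 0 in each of these 4 lists, where 3, 3, 4 and 6 genes had an unadjusted p under 0.05.

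**Figure D5:**
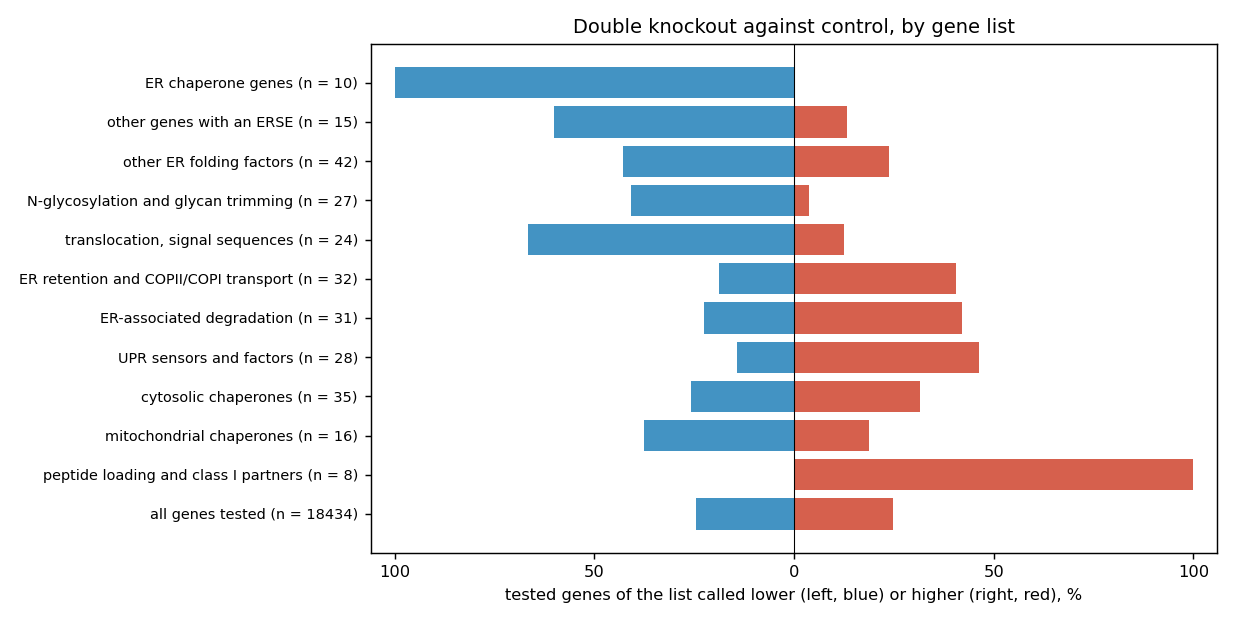
Share of the tested genes of each list called lower (blue, to the left) or higher (red, to the right) in the double knockout against control, in %, with the number tested beside each name and all 18434 tested genes as the lowest bar. The ER chaperone genes are lower in 10 of 10, the translocation genes in 16 of 24, and all genes split into 24.6% lower and 24.7% higher.

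Genes outside the 10 with an ERSE in their RefSeq window were listed from the sequences alone, and 24 of them matched a protein-coding gene of the table. Of the 15 that were tested, 9 were lower and 2 higher in the double knockout (median -0.41), beside 24.6% and 24.7% of all genes. In the Ep300 knockout 5 were lower (median -0.21), beside 8.83% of all genes, and 0 of the 15 were called by edgeR in the Crebbp knockout, where 3 had an unadjusted p under 0.05. The 9 were Dnajc3 (-0.75), Creld2 (-0.61), Ero1lb (-0.49), Alg12 (-0.48), Hnrnpa3 (-0.40), the calreticulin paralog Calr4 (-2.17) and the Xlr3a, Xlr3b and Xlr3c copies, which may share reads. Creld2 and Dnajc3 are ER folding factors, Ero1lb is an ER oxidase and Alg12 a mannosyltransferase of N-glycosylation. Syvn1, the ubiquitin ligase of ER-associated degradation, has the element and was higher (0.48 ± 0.10, adjusted p = 0.00119), as was Adcy3, an adenylyl cyclase (0.42 ± 0.094, adjusted p = 0.00169). The genes of this list were named after their values were seen.

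For the 2 members with the widest range over the groups, Sdf2l1 and Pdia6, the genes of most similar pattern were ranked by the root mean square difference of centred log2 CPM over the 12 libraries, among 9432 genes averaging 5 CPM or more. For Sdf2l1 they were Insig1 (0.076), Gstp1, Mitf, Rapsn and Acsl3 (0.099). For Pdia6 they were Aldh9a1 (0.038), Syt4, Galm, Tram1 and Adi1 (0.063). Tram1 was thus both on the translocation list and among the genes nearest to Pdia6. Insig1, a sterol-regulated protein of the ER membrane, changed by -0.38, -0.095 and -1.40 on the log2 scale in the Ep300, Crebbp and double knockout, beside -0.52, -0.06 and -1.40 for Sdf2l1. As Insig1 was chosen for its similarity over these same libraries, close values follow from the choice.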

How the data were processed

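The authors deposited raw, unnormalized read counts for each Ensembl gene in 1 table of 12 columns. RNA was extracted with RNeasy Plus columns and the library kit was KAPA Stranded mRNA-Seq, per the labels' protocols. bcl2fastq, HISAT2, HTSeq and build mm10 are named, per the submitters' processing notes; their versions, the strand setting and the gene annotation were not given in the sources used here. All 12 columns were used, and 54723 of 54752 identifiers matched a symbol in GENCODE M21.

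Counts were filtered with filterByExpr, scaled by TMM and fitted with edgeR 4.0.16 (R 4.3.3), using the robust quasi-likelihood F test on all 12 libraries with group as the only term. Benjamini-Hochberg adjustment ran over 18434 genes within each comparison, with a threshold of 0.05. SE were derived from the F statistic. No 2 libraries of a group agreed within sampling noise (chi-square per degree of freedom of at least 10.8). RPKM used GENCODE M21 exon models. The counting could split reads of near-identical copies.

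Named genes were all members, both targets, the upstream factors Atf6, Ern1, Eif2ak3, Atf4, Ddit3, Nfya, Nfyb and Nfyc, and for each list and knockout against control the 2 genes with the smallest adjusted p under 0.05. Some are given in 1 comparison only. Other genes with an ERSE, and Derl1, were named outside this rule, after their values were seen. The members and lists were chosen with earlier results of these data known. The alternatives were DESeq2 1.42.0, limma-voom (limma 3.58.1), other scalings and filters, only the groups compared, a replicate block, length and GC offsets, and leaving out each library. The code was checked on simulated data.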

Additional observations from a re-analysis of the deposited data

Results flagged for a closer look

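In 4 of the 10 genes the double-knockout change was a larger fall than the sum of the single-knockout changes, in the libraries so labelled. Of all tested genes, 4.96% were called in that direction. RNA of the targeted genes did not match the labels of 2 of these groups. The contrast thus compares group means, and whether it reflects the loss of both genes was not tested. The difference was -0.82 on the log2 scale for Sdf2l1, -0.60 for Calr, -0.59 for Pdia6 and -0.47 for Pdia4. In each of the 4 genes all 3 double-knockout libraries lay below all 3 libraries of every other group. The same held for Hspa5, Pdia3, Hsp90b1 and Canx, whose differences were not called. The share of all tested genes with this separation was not counted. With the log2 TMM factor as a covariate the differences were -0.61, -0.44, -0.47 and -0.46, each still called, beside 1503 of all tested genes called negative. The factors of the double-knockout libraries lay above those of all others, so that fit cannot separate their part from that of the group.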

How the results depend on the processing

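Each result for the members was recomputed under 23 alternatives (22 for the additivity contrast, which needs all 4 groups), of which 20 were planned and 3 chosen after seeing the data (library totals, leaving out the 3 libraries that stood apart from both others of their group, and the TMM factor as a covariate). Leaving out divergent libraries lowers the estimated spread by construction. Of the member results under these settings, 1490 kept their side of the threshold, 28 of them with a change of sign while not called. A further 60 gained a call, 44 lost one, and 6 changed sign with a call in at least 1 of the fits compared. All 10 members were called lower in the double knockout in each of the 12 analyses without 1 library (10 to 10).

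The sign changes were Xbp1 in the double knockout against control with library totals (0.0065), Dnajb9 in Ep300 against Crebbp knockout without the 3 libraries (0.18), and Dnajb9 with the covariate in the double knockout against control (0.034), Ep300 knockout (0.22) and Crebbp knockout (0.20) and in the additivity contrast (0.38). Their cause was not tested.

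Members called in Ep300 knockout against control numbered 8 with DESeq2, 3 with only the groups compared, 9 with length and GC offsets, 10 with the covariate, and 3 to 6 without 1 library. In Crebbp knockout against control the count was 1 (Dnajb9) without the low-count filter, without the 3 libraries and with the covariate, and 0 to 0 without 1 library. In Ep300 against Crebbp knockout it was 8 with DESeq2, 2 with only the groups compared, 9 without the 3 libraries (8 lower and Dnajb9 higher), 8 with the covariate, and 3 to 7 without 1 library. In the additivity contrast it was 8 with DESeq2, 8 without the 3 libraries, 8 with the covariate (7 negative and Dnajb9 positive), and 4 to 6 without 1 library. It was 7 to 8 in double against Ep300 knockout and 9 to 10 in double against Crebbp knockout without 1 library.

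Of all genes, the Ep300 knockout against control gave 4669 calls without the 3 libraries and 5240 with the covariate, beside 2969. The Crebbp knockout gave 1279 with DESeq2, 1270 without the filter, 257 with only the groups compared, 1438 with offsets, 1640 without the 3 libraries, 2245 with the covariate, and 214 to 774 without 1 library, beside 577. The double knockout gave 6064 against control and 4010 against the Ep300 knockout with the covariate, beside 9102 and 6376. Ep300 against Crebbp knockout gave 5745 without the 3 libraries and 5501 with the covariate, beside 2512. The additivity contrast gave 4886 and 3249 under those settings and 1119 to 2861 without 1 library, beside 1897.

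With the replicate number as a replicate block, the members called were 5, 0 and 10 for the Ep300, Crebbp and double knockout against control. They were 4 for Ep300 against Crebbp knockout, 7 and 10 for the double knockout against the Ep300 and Crebbp knockout, and 4 for additivity. Of all genes, 321 were called in the Crebbp knockout, beside 577 in the main fit. In each other comparison the count of all genes called stayed within a factor of 1.5 of the main fit. Deviations from the group means had r across genes from -0.17 to 0.107 over 18 pairs of same-numbered libraries. Over 36 other pairs of libraries from different groups r ran from -0.225 to 0.212. A small shared effect could go unseen in such values, so whether the numbers pair the samples is not known. The filter and 3 libraries per group limit what can be detected, and depth of at least 64257251 counts leaves counting error small for the members.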

Other observations

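Of 35 tested cytosolic chaperone genes, 9 were lower and 11 higher in the double knockout against control, beside 24.6% of all tested genes lower and 24.7% higher, with a median of -0.0011. The heat-inducible Hsp70 gene Hspa1b, a near-identical copy of Hspa1a that may share its reads, was higher (1.43 ± 0.087, adjusted p = 3.47e-09), as was Hspa4l, an Hsp110 family member (1.04 ± 0.075, adjusted p = 2.18e-08). In the Ep300 knockout 3 of the 35 were higher, beside 7.27% of all genes, among them Hspa4l (0.44 ± 0.074) and Hspa1b (0.38 ± 0.089), and in the Crebbp knockout edgeR called 0, where 2 had an unadjusted p under 0.05. Of 16 mitochondrial chaperone and protease genes, 6 were lower and 3 higher in the double knockout (median -0.13), against the same shares of all genes, with Clpb, a disaggregase, higher (0.59 ± 0.073, adjusted p = 8.89e-06) and the protease Htra2 lower (-0.53 ± 0.08, adjusted p = 6.85e-05). Of these 16, 1 was lower in the Ep300 knockout, the protease Lonp1 (-0.33 ± 0.079), and 1 higher, the import motor gene Pam16 (0.43 ± 0.13), beside 8.83% and 7.27%.

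Calreticulin and Pdia3 also serve in the peptide-loading complex of MHC class I. A list of peptide loading genes and class I partners held Tap1, Tap2, Tapbp, Tapbpl, Erap1, B2m, H2-K1 and H2-D1, not all of them parts of that complex. Of these, 8 of 8 were higher in the double knockout (median 2.16) and 8 of 8 in the Ep300 knockout (median 0.96). In the Crebbp knockout 2 of 8 were higher, B2m (0.31 ± 0.073) and H2-K1 (0.33 ± 0.08). The shares of all genes called higher were 24.7%, 7.27% and 1.52%. H2-K1 rose by 2.28 ± 0.08 in the double knockout and the peptide transporter gene Tap1 by 1.56 ± 0.11 in the Ep300 knockout. Tapbp (tapasin), which bridges class I chains to the transporter and pairs with Pdia3, rose from 14.9, 13.3 and 14.3 CPM in control to 81.5, 85.6 and 81.4 CPM in the double knockout (2.55 ± 0.093, adjusted p = 8.18e-12), while Pdia3 changed by -0.75 ± 0.095 (adjusted p = 1.18e-05).

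Of 7 tested replication-dependent histone genes, whose mature RNA lacks a poly(A) tail, 3 were lower and 1 higher in the double knockout, beside 24.6% and 24.7% of all genes. In the Ep300 knockout 2 were higher and 0 lower, beside 7.27% and 8.83%. In the Crebbp knockout 3 were higher and 0 lower, beside 1.52% and 1.61%. The summed level of the list was 1549 to 1723 CPM in control, 1761 to 1860 in Ep300 knockout, 1809 to 2127 in Crebbp knockout and 1449 to 1588 in double-knockout libraries.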
